A study of Mus musculus with 34 samples.

Results

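Hearts of mice that had received carbon black nanoparticles in the airways 3 days earlier were compared, across all genes measured, with hearts of mice that had received the vehicle and were killed at the same time after it. The comparison used 11 of the 34 arrays of the series: the 5 labelled carbon black day 3 and the 6 labelled control day 3. All animals were female C57BL/6 mice, 5 to 6 weeks old when acquired, and all were instilled through the trachea with 40 µl of fluid followed by 150 µl of air. In the carbon black group this fluid held 162 µg of Printex 90, a carbon black made of nanoparticles. In the control group it was the vehicle alone, saline with 10% of lavage fluid from the lungs of other C57BL/6 mice, and the exposed mice received this vehicle as well. Each array carried RNA of 1 heart section containing both ventricles, labelled with Cy5, against a pooled mouse reference RNA labelled with Cy3. A log2 ratio above 0 means more transcript in the heart than in the reference, and a log2 fold change is the carbon black mean minus the control mean of such ratios. The arrays carry separate sample numbers in the labels and the series design speaks of single animals, so the p-values measure the spread between mice within a group. The other 23 arrays, from days 1 and 28 after instillation, served to estimate that spread and to ask whether day 3 differed from the other days.

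Inhaled carbon black particles settle in the lung, where macrophages and epithelial cells take them up and release cytokines, and the liver answers with acute phase proteins. The heart is a distant organ in this setting. Effects there are sought in genes of oxidative defence, inflammation, stress hormones, vessel tone, and the contraction and electrical conduction of cardiomyocytes. A section of whole heart contains ventricular and atrial muscle, vessels, fibroblasts, resident macrophages, fat of the outer surface and blood, and its RNA is the sum over these cells. In such bulk samples fewer cells of a type and less RNA per cell cannot be told apart.

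Transcripts of cardiomyocytes were far above the reference on all 11 arrays. The ratio of Tnni3, cardiac troponin I, was between 4.19 and 6.78, and that of Nppa, atrial natriuretic peptide, between 4.36 and 5.38. The arrays nevertheless differed in what else the section held, as seen from marker scores, for which each marker's log2 ratio was set against its median over the 34 arrays and the markers of a cell type were averaged. Control replicate 4 and carbon black replicate 2 were low in atrial markers, with scores of -3.21 and -2.18, against -0.80 or above on the other arrays. Hepatocyte transcripts were high on control replicates 4, 5 and 6, at 1.92, 4.12 and 3.10, and on carbon black replicates 1 and 3, at 1.87 and 2.43. Transcripts of airway secretory and alveolar cells were high on control replicates 1, 5 and 6, at 3.68, 2.24 and 2.52, and the highest carbon black score was 0.83. Liver and airway transcripts are foreign to the heart. For some results that move with them, values without these control arrays are given below. Carbon black replicates 1 and 3 stay in those fits.

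**Figure D1:**
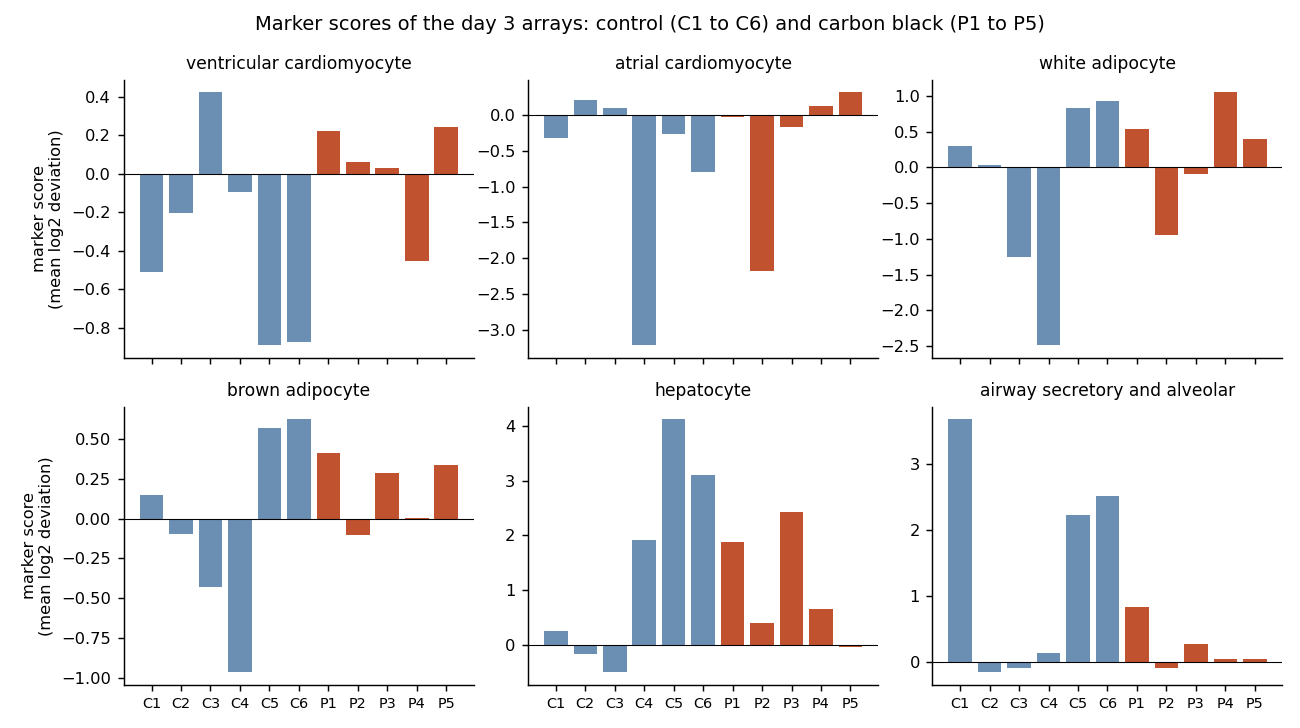
Bars show the marker score (mean log2 deviation from the median of all 34 arrays) of 6 cell types on the 6 control arrays (C1 to C6, blue) and the 5 carbon black arrays (P1 to P5, red). Atrial scores are lowest on C4 (-3.21) and P2 (-2.18), and airway scores are high on C1, C5 and C6 (2.24 to 3.68) and at most 0.83 on the carbon black arrays.

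In the heart channel 49.4% to 65.2% of spots exceeded background clearly by the scanner software's flag, called well above background here. The median heart signal was between 105.5 and 155, and no spot was saturated in this channel. Control hearts were less alike than exposed hearts. Each array's correlation with the others of its group had a median between 0.84 and 0.88 for controls and between 0.91 and 0.95 for carbon black. The median standard deviation over genes was 0.27 among controls and 0.19 among exposed arrays, and 14272 of 19798 genes (72.1%) varied more among the controls. On 3 slides, each with 4 arrays, 1 control array stood beside 1 carbon black array, but always in the first position for the control and the fourth for carbon black. At position 2, control replicates 2 and 5 faced carbon black replicates 2 and 5. The 3 slide pairs and the arrays at position 2 therefore gave separate readings, 1 within slides and 1 within a position.

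No gene passed the test at day 3. Of 19798 genes, 0 (0%) reached an adjusted p under 0.05 in limma with Benjamini-Hochberg adjustment, and the lowest adjusted p was 0.345. At an unadjusted p under 0.05 there were 2199 genes (11.1%), where 990 would be expected with no difference in any gene. Of these, 1386 (7.00%) had the higher mean after carbon black and 813 (4.11%) the lower. Over all genes 53.0% of fold changes were above 0 and 47.0% below, and the median was 0.02. With median-centred arrays in place of loess the median of all genes was 0.29, and the 3579 genes at an unadjusted p under 0.05 split into 3499 higher and 80 lower. With the values deposited by the authors the split was 1473 higher and 1666 lower. With array position as a block it was 447 higher and 598 lower, and at position 2 alone 508 and 606. The excess of higher over lower genes thus changed with the scaling and with position, and a fold change is best read against the median of all genes.

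The size of the differences was small. The median standard error of a fold change was 0.16 on the log2 scale and the median half-width of its 95% interval was 0.32. Only 80 genes (0.404%) had a fold change beyond 1 on the log2 scale. The groups did not overlap for 176 genes (0.889%), 107 (0.540%) with carbon black higher and 69 (0.349%) with carbon black lower. The excess of higher genes lay among bright genes. With the genes divided by signal into 4 bins of equal size, 454 genes of the brightest bin were higher and 133 lower at an unadjusted p under 0.05, and in the dimmest bin 161 were higher and 255 lower. Without control replicates 1, 5 and 6, the arrays high in airway transcripts, 816 genes had an unadjusted p under 0.05. Without control replicates 4, 5 and 6, high in liver transcripts, there were 1068. Both fits have fewer control arrays.

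Among the genes with a higher mean after carbon black, the 10 of smallest unadjusted p were Zfp119a, Usp8, Senp7, Ints13, Tmem33, Cc2d2a, Stat3, Lrrc57, Wbp11 and Trappc13. Their log2 fold changes were between 0.44 and 0.81, and none passed (limma adjusted p = 0.345 for each). Stat3, the transcription factor that carries signals of interleukin 6 and related cytokines into the nucleus, had ratios of -0.23, 0.48, 0.53, -0.33, 0.51 and -0.09 in control replicates 1 to 6. In carbon black replicates 1 to 5 its ratios were 0.83, 0.68, 1.06, 0.98 and 1.14. The groups did not overlap, the fold change was 0.79 (standard error 0.21, 95% interval 0.37 to 1.21), and it was 0.17 at day 1 and 0.07 at day 28. Usp8, a deubiquitinase of endosomes, was between -0.77 and -0.04 in controls (median -0.29) and between -0.0004 and 0.19 in exposed hearts. Its fold change was 0.46 (standard error 0.11), again without overlap. Ints13, a subunit of the Integrator complex that processes RNA polymerase II transcripts, was between -2.28 and -1.29 in controls and between -1.03 and -0.74 after carbon black. Wbp11, a splicing factor, had the largest fold change of the 10, 0.81 (standard error 0.21), but its highest control, -0.49, lay above its lowest exposed heart, -0.51. Zfp119a, a zinc finger protein, was dim: 2 of 6 control arrays and 5 of 5 carbon black arrays were well above background.

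Among the genes with a lower mean after carbon black, the 10 of smallest unadjusted p were Ogfod2, Hexdc, 4933421I07Rik, Endov, Pnpla5, Nagpa, Olfr1359, Irs4, Shroom1 and Amelx. Their fold changes were between -0.69 and -0.29, also with a limma adjusted p of 0.345. Ogfod2, a member of the 2-oxoglutarate and iron dependent oxygenases, had the smallest unadjusted p of all named genes. Its ratios were 0.19, -0.06, -0.14, 0.26, 0.13 and 0.26 in controls and -0.31, -0.26, -0.54, -0.23 and -0.27 in exposed hearts. The groups did not overlap, the fold change was -0.42 (standard error 0.09), and a second probe of the gene gave -0.42 as well. Hexdc, a hexosaminidase, was between -0.23 and 0.12 in controls and between -0.59 and -0.38 after carbon black. Nagpa, an enzyme that finishes the mannose 6-phosphate tag of lysosomal proteins, was between 0.53 and 0.95 in controls and between 0.29 and 0.36 in exposed hearts, with a fold change of -0.31 (standard error 0.09). Shroom1, a protein of the actin cytoskeleton, had the largest fold change, -0.69, and rested in part on control replicate 5 at 0.95, where the other controls were between -0.66 and 0.03. The odorant receptor Olfr1359 was near background, with 5 of 6 control arrays and 2 of 5 exposed arrays well above it. Nagpa and Amelx turned to 0.07 and 0.01 with median centring, below the 0.29 of all genes under that scaling.

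Of these 20 genes, 6 of the 10 higher and 5 of the 10 lower had groups that did not overlap. These genes were picked for their small p, so that count only describes them. Of the 20, 5 had further probes. Those of Tmem33 and Lrrc57 gave 0.17 and 0.03, the 3 of Senp7 lay between -0.13 and 0.24, and the 3 of Endov between -0.22 and 0.04. Senp7 and Endov thus had probes of both signs. Within slides, 19 of the 20 kept their direction in each of the 3 pairs, the exception being Shroom1 with 1 pair at 0.02. Between the arrays at position 2 all 20 kept it, with differences between 0.23 and 1.14 in size. Both readings use the arrays that picked the genes and describe them only. At day 1, 9 of the 10 higher and 9 of the 10 lower genes had a fold change of the same sign as at day 3, and at day 28 all 20 did. Over all 19798 genes the sign was the same as at day 3 for 63.4% at day 1 and for 66.1% at day 28.

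**Figure D2:**
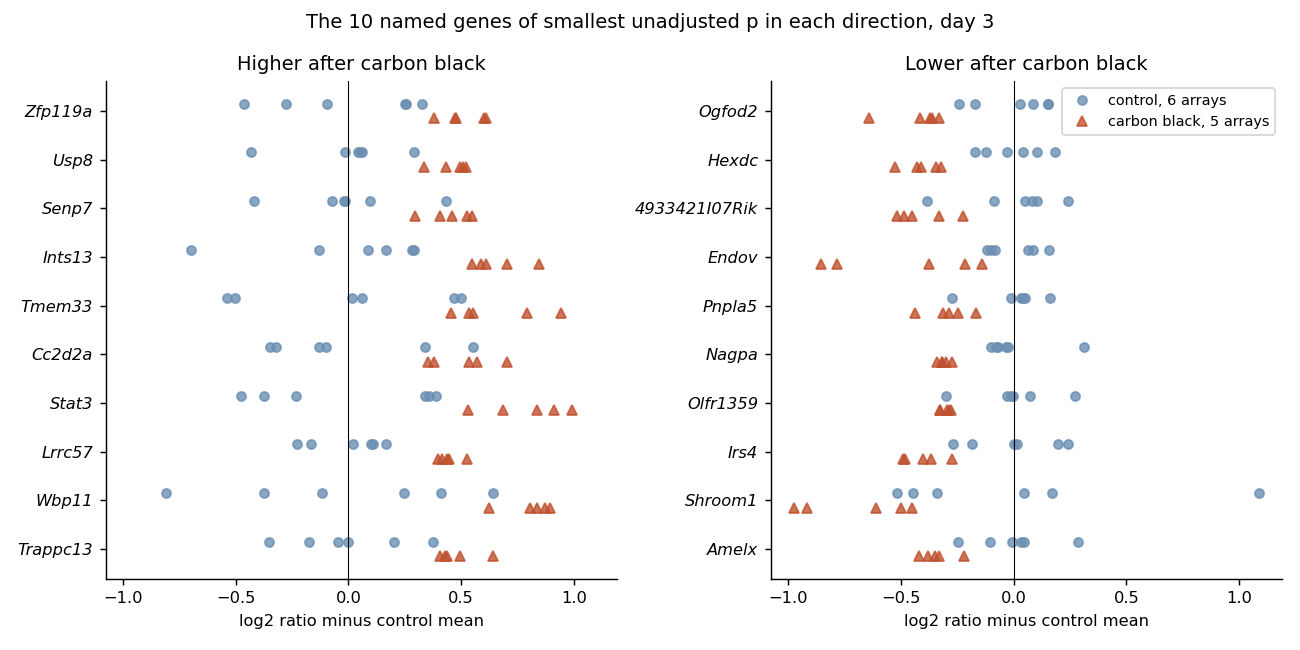
Points are the log2 ratios of single arrays minus the control mean of the gene, for the 10 genes of smallest unadjusted p in each direction (blue circles, 6 control arrays; red triangles, 5 carbon black arrays). Exposed arrays lie on 1 side of the control mean in each gene, but only 6 of 10 higher and 5 of 10 lower genes have groups without overlap, and none passed the test.

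The day 3 difference was also set against the mean of the day 1 and day 28 differences. No gene passed: 0 of 19798 (0%) in limma, with a lowest adjusted p of 1 and 332 genes (1.68%) at an unadjusted p under 0.05. The corresponding shares for the single days were 7.18% at day 1 and 2.98% at day 28, with 0 genes passing at either. The 5 genes of smallest unadjusted p with a larger fold change at day 3 were Zfp119a, Gbp7, Hsph1, Irf9 and Sppl2a. Irf9, the DNA-binding part of the complex that switches on interferon genes, had a fold change of 0.35 at day 3, -0.18 at day 1 and -0.03 at day 28. Gbp7, an interferon-induced GTPase, had 0.39 at day 3, -0.27 at day 1 and -0.32 at day 28. Its day 3 slide pairs gave 0.64, -0.15 and 1.29, and position 2 gave 0.05. The heat shock protein Hsph1 had 0.29 at day 3 and -0.74 at day 1. In the other direction stood Marchf6, Cyp26b1, Bpifa1, Scgb3a1 and Pecr. Cyp26b1, which breaks down retinoic acid, had a fold change of -0.93 at day 3 (standard error 0.36), 0.32 at day 1 and 0.50 at day 28. Its exposed ratios were -0.35, 0.99, 0.93, 0.39 and 0.24 and its controls ran from 0.29 to 2.56, so the groups overlapped. Bpifa1 and Scgb3a1 are secreted by airway epithelium and belong to the airway markers, described below.

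To read the comparison by function, 29 lists of pathway genes and 19 lists of cell type markers were described by their counts and medians. Of the 898 list members 805 had a probe that passed the filter on dim signals. The member counts below are of these measured genes, and 0 of them passed the test in any list. For reference, the median fold change of all genes was 0.02, and 53.0% were above 0.

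**Figure D3:**
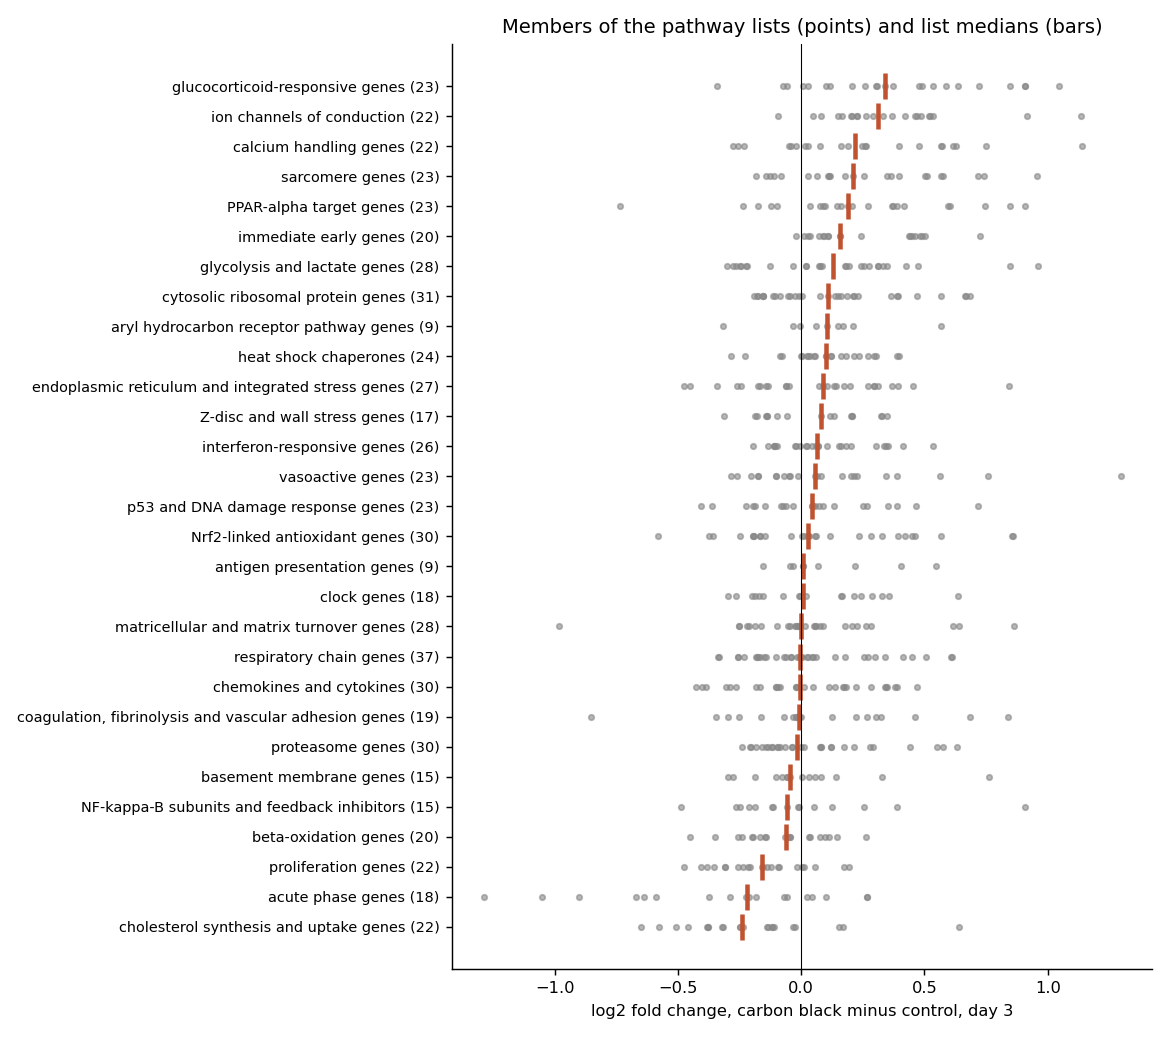
Grey points are the log2 fold changes (carbon black minus control, day 3) of the measured members of 29 pathway lists, and red bars are list medians; the number of measured members stands in brackets. The medians run from -0.24 for cholesterol synthesis to 0.34 for glucocorticoid-responsive genes, and the members of each list spread over a wider range than the medians.

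Oxidative defence is governed by the transcription factor Nrf2, which particles and other oxidants release from its inhibitor Keap1. Of 30 measured Nrf2-linked antioxidant genes, 19 had a fold change above 0 and 11 below, with a median of 0.03, and none passed. The single most separated member was Gsr, glutathione reductase, which regenerates reduced glutathione. Its ratios in control replicates 1 to 6 were -1.25, -1.19, -1.01, -1.45, -0.39 and -1.39. In the exposed hearts they were -0.58, -0.63, -0.71, -0.55 and -0.79. All exposed hearts lay above 5 of the 6 controls, and control replicate 5 lay above all exposed hearts. The fold change was 0.46 (standard error 0.13, limma adjusted p = 0.345), and 2 further probes gave 0.42 and 0.55. Without control replicate 5 the fold change was 0.60 and Gsr became the only gene to pass (limma adjusted p = 0.0413), a result that rests on leaving out that array, which was also the highest in liver transcripts. The difference within slides was 0.67, 0.30 and 0.90, and between arrays at position 2, where control replicate 5 stands, it was 0.08.

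Gstm1, a glutathione transferase, had a fold change of 0.86 (standard error 0.27, limma adjusted p = 0.345). Exposed hearts had 1.64, 1.13, 1.58, 1.62 and 1.49. Controls lay at 2 levels, with replicates 2, 3 and 5 at 1.20, 1.27 and 1.22 and replicates 1, 4 and 6 at -0.02, 0.21 and -0.09. The groups overlapped at the upper level. The slide pairs of Gstm1 gave 1.66, 0.31 and 1.40, position 2 gave 0.10, and the mean over its probes was 0.56. Nfe2l2, which encodes Nrf2 itself, had a fold change of 0.42 and its lowest control, replicate 1 at -1.10, stood apart from the others at -0.43 or above. Ftl1, the light chain of the iron store ferritin, had 0.45 overall but -0.01 at position 2. Srxn1, a sulfiredoxin that is a well-known Nrf2 target, had the opposite sign with -0.37 (standard error 0.13). Its exposed ratios of -1.16 to -1.55 were close to those of controls 1 to 4, -1.05 to -1.30, and without the liver-high controls its fold change was -0.11. Among 9 aryl hydrocarbon receptor pathway genes, which respond to aromatic compounds, 6 were above 0 with a median of 0.10. The receptor Ahr had -0.32, and Nqo1, a quinone reductase driven by this receptor and by Nrf2, had 0.57 with a standard error of 0.41. Without control replicates 1, 5 and 6, the arrays high in airway transcripts, Nqo1 had 0.03.

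**Figure D4:**
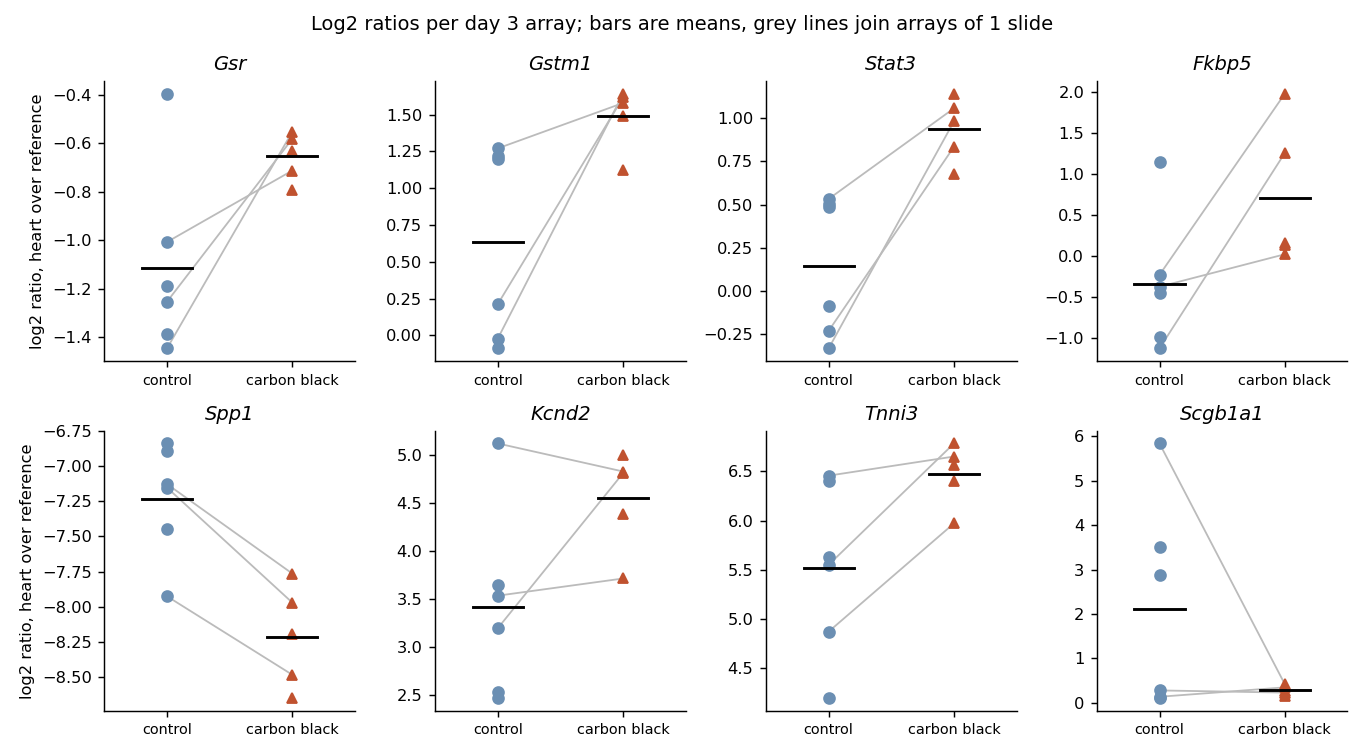
Each panel plots the log2 ratio (heart over reference) of a gene on the 6 control arrays (blue circles) and the 5 carbon black arrays (red triangles); black bars are means and grey lines join the arrays of 1 slide. For Gsr 5 of 6 controls lie below all exposed arrays, for Stat3 the groups do not overlap, and for Scgb1a1 3 control arrays at 2.88 to 5.84 hold the control mean of 2.12 up.

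Genes that answer to glucocorticoids had the highest median of the 29 pathway lists. Glucocorticoids are the stress hormones of the adrenal cortex, and their receptor binds DNA as a pair and switches on genes such as Fkbp5, Tsc22d3, Per1 and Sgk1. Of 23 measured members 20 had a fold change above 0 and 3 below, with a median of 0.34, and 0 passed. The median was 0.38 at day 1 and 0.31 at day 28. It stayed above 0 under the 29 alternatives tried, between 0.24 and 0.74, the highest being with median centring, where all genes had 0.29. It was 0.45 in the 3 slide pairs, 0.54 at position 2 and 0.58 without the airway-high controls. Fkbp5, a co-chaperone that dampens the receptor, had a fold change of 1.05 (standard error 0.52, limma adjusted p = 0.458). Its control ratios ran from -1.13 to 1.14 with a median of -0.42, and its exposed ratios were 0.02, 0.15, 1.25, 1.97 and 0.12. Control replicate 6 exceeded 3 of the 5 exposed hearts, and the other 5 controls lay below all of them. Other probes of Fkbp5 gave -0.09 and -0.08, so that the value rests on the brightest of 3 probes.

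Nfkbia, the inhibitor that holds NF-kappa-B in the cytoplasm and a target of both NF-kappa-B and the glucocorticoid receptor, had a fold change of 0.91 (standard error 0.36, limma adjusted p = 0.357). Exposed hearts had -0.80, -0.96, -0.12, 0.69 and 0.07, and controls -1.45, -1.21, -1.13, -1.34, -1.59 and -0.08. As with Fkbp5, control replicate 6 alone lay among the exposed hearts. It also had the highest list score among controls, 0.61, against 0.10 to 0.56 on the exposed arrays and -0.46 to 0.13 on the other controls. Tsc22d3, the anti-inflammatory leucine zipper protein GILZ, had a fold change of 0.31 and Dusp1, a phosphatase of MAP kinases, 0.49, and for both control replicates 2 and 5 were low, at 0.56 and 0.92 for Tsc22d3 and at 0.43 and 0.30 for Dusp1. Fam107a had 0.31 but was well above background on only 1 of 6 control arrays. Hif3a, a hypoxia-inducible factor subunit, was on the other side with -0.34. Clock genes, several of which glucocorticoids and feeding also move, had a median of 0.01 over 18 members, 9 above 0 and 9 below. Per1, a repressor of the clock that belongs to both lists, had 0.63 with a control SD of 1.20, Nr1d1 had 0.36 and Cry2 had 0.29. The other probes of Nr1d1 gave -0.16 and -0.15.

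The glucocorticoid receptor's DNA element is a pair of inverted 6-base arms spaced by 3 bases. The pattern searched here leaves out the outer base of each arm and allows any base at N. The pattern GNACANNNTGTNC, which reads the same on both strands, was searched in the 250 bases before each RefSeq start site (GRCm38.p6). It occurred in 127 of 32851 windows (0.387%). Of the 24 listed genes 20 had a window, and 4 of these (20%) held the pattern, in 5 of 32 windows (15.6%). They were Fam107a, Map3k6, Mt1 and Sgk1, the last 3 named here for the pattern and not for their values. Fam107a held it in 2 of 3 windows, Sgk1 in 1 of 6, and Map3k6 and Mt1 in their only window. The list was composed of known targets of the receptor, so a match is a description of the window and neither a bound site nor a cause. The stretches are printed 5′ to 3′ on the gene's strand to show how far the 4 elements agree, with the pattern in capitals.
Sgk1, chr10:21993662-21993754, plus strand: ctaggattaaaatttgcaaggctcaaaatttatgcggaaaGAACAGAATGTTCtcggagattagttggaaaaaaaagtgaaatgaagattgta
Mt1, chr8:94178955-94179047, plus strand: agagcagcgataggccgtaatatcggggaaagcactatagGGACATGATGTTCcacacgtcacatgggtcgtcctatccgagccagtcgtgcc
Map3k6, chr4:133240597-133240689, plus strand: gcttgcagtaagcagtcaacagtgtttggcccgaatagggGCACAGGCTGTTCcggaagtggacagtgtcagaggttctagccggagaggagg
Fam107a, chr14:8309845-8309937, minus strand: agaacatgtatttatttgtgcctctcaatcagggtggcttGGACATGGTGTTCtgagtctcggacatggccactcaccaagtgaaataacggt
None of the 4 genes with the pattern passed the test. Sgk1, a kinase that regulates sodium transport, had a fold change of 0.34 (standard error 0.34), with controls from -1.27 to 0.65 and exposed hearts from -0.16 to 0.33. Mt1, a metal-binding metallothionein, had 0.20 (standard error 0.17), and the kinase Map3k6 had 0.03 (standard error 0.33). All 5 exposed hearts lay within the control range for Sgk1, Mt1 and Map3k6. Fkbp5 and Nfkbia, with the largest fold changes of the list, did not hold the pattern in their windows.

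Immediate early genes, transcription factors and phosphatases that respond within minutes to stimuli and to handling of tissue, had 19 of 20 measured members above 0 with a median of 0.16. Leaving out carbon black replicate 3, whose list score of 1.37 was the highest of all 34 arrays, gave a median of -0.07. Junb, a partner of Fos, had a fold change of 0.73 (standard error 0.29, limma adjusted p = 0.363), with controls from -3.09 to -1.72 and exposed hearts at -1.46, -2.27, -0.60, -1.46 and -1.75. Its slide pairs gave 1.62, 1.22 and 0.75, position 2 gave 0.04, and the mean over its probes was 0.48. Ier3, a regulator of cell survival, was the 1 member without overlap, where 107 of all 19798 genes (0.540%) had carbon black higher without overlap. Ier3 ran from -2.82 to -2.02 in controls and from -2.01 to -1.54 in exposed hearts, with a gap of only 0.01 between them. The transcription factor Klf4 had 0.46.

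Inflammation genes had list medians close to that of all genes. Of 30 chemokines and cytokines, 15 were above 0 and 15 below, and the median was 0.00. Ccl2, the chemokine that draws monocytes, had a fold change of 0.34, carried by carbon black replicate 3 at -2.02, where the other 10 arrays lay between -3.26 and -2.75. Cx3cl1, the membrane-bound chemokine fractalkine of endothelium, had -0.40 (standard error 0.13, limma adjusted p = 0.345), with controls from -1.99 to -1.31 and exposed hearts from -2.43 to -1.79. It kept its sign in the 3 slide pairs (-0.48, -0.24 and -1.08) and at position 2 (-0.15). NF-kappa-B subunits and inhibitors had 5 of 15 members above 0 and a median of -0.06. Tnfaip3, the inhibitor A20, stood at -0.49, with exposed hearts between -1.72 and -1.18 and controls between -1.20 and -0.85. Its sign was opposite to that of Nfkbia, another feedback inhibitor of the pathway. The kinase Chuk had 0.25. Interferon-responsive genes had 17 of 26 above 0 and a median of 0.06, with Irf9 at 0.35 and Oasl2, an antiviral synthetase relative, at 0.54. Of 9 antigen presentation genes 6 were above 0, and Tapbp, which loads peptides onto class I molecules, had 0.55. Irf9, Oasl2 and Tapbp were positive in the 3 slide pairs, but at position 2 they had only 0.07, 0.09 and 0.03.

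Acute phase genes, made mainly by the liver, had 13 of 18 members below 0 and a median of -0.22. The median was 0.31 without control replicates 4, 5 and 6, 0.29 in the 3 slide pairs and -1.36 at position 2. Those 3 arrays were singled out by hepatocyte transcripts and the list shares Hpx, Fgg and Fgb with the hepatocyte markers, so the move only shows which arrays hold the difference. Hpx, the haem scavenger hemopexin, had -1.29 (standard error 0.65), with controls at 0.75, 0.21, -0.20, 2.47, 5.79 and 3.53. Itih3 had -1.05 with control replicate 5 at 5.77. Saa1, serum amyloid A, had -0.64 and control replicate 5 at 1.81, above all other day 3 arrays, which were at 0.03 or below. Of 11 measured hepatocyte markers 3 were above 0, with a median of -0.59. The markers Alb and Apoa1, serum albumin and the main protein of HDL, had fold changes of -0.26 and -0.72 in all arrays and 1.83 and 0.88 without those controls. That fit removes controls only. It keeps carbon black replicates 1 and 3, whose hepatocyte scores were 1.87 and 2.43, so a rise of liver transcripts there follows from the choice of arrays. The part of liver RNA in the acute phase values was not tested.

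Cholesterol synthesis and uptake genes had the lowest median of the pathway lists, -0.24, with 19 of 22 members below 0 and 0 passed. Their list score was highest on control replicates 5 and 6, 1.13 and 0.56, the arrays highest in hepatocyte transcripts, and the median was -0.01 without control replicates 4, 5 and 6. It was 0.01 within the 3 slide pairs and -0.57 at position 2, where control replicate 5 stands. With median centring the median was 0.21, below the 0.29 of all genes. Hmgcs1, the synthase of an early step of the pathway, had 0.64 (standard error 0.35), opposite in sign to the list's median, and a second probe gave -0.04. Its controls ran from -1.73 to 0.45 and its exposed hearts from -0.70 to 0.34. The part of liver RNA was not tested here either.

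Genes of contraction and conduction had medians above that of all genes. Of 22 ion channels and connexins of conduction 21 were above 0, with a median of 0.31, and 0 passed. Kcnd2, a channel of the transient outward potassium current, had control ratios of 3.19, 3.65, 5.12, 3.53, 2.53 and 2.47 and exposed ratios of 4.81, 5.00, 4.83, 3.71 and 4.39. All exposed hearts lay above 5 of the 6 controls and below control replicate 3. The fold change was 1.13 (standard error 0.48, limma adjusted p = 0.376), and a second probe gave 0.90. With the mean over the probes of Kcnd2 in place of the brightest it was 0.70. The related channel Kcna4 had 0.29. The list's median was -0.01 in the 3 slide pairs, 0.40 at position 2 and 0.00 without control replicates 1, 5 and 6.

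Sarcomere genes had 18 of 23 members above 0 with a median of 0.21. Tnni3 had a fold change of 0.96 (standard error 0.38, limma adjusted p = 0.363), with controls at 5.55, 6.40, 6.46, 4.87, 5.63 and 4.19 and exposed hearts at 6.78, 6.40, 6.65, 5.97 and 6.56. The myosins followed with 0.72 for Myh6, the adult heavy chain, and 0.74 for Myl3, a light chain, and Actc1, cardiac actin, had 0.50. Myl2, the ventricular light chain, had 0.57 and rested on control replicate 5 at 1.88, where the other controls were between 4.26 and 5.31. Calcium handling genes had 16 of 22 above 0 and a median of 0.22. Hrc, which binds calcium in the sarcoplasmic reticulum, had 1.14 (standard error 0.43, limma adjusted p = 0.348), and Sri, sorcin, a regulator of the calcium release channel, had 0.63. Z-disc and wall stress genes had 9 of 17 above 0, and Des, desmin, had 0.33.

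The values of these lists depended on which control arrays were used. The ventricular cardiomyocyte score was -0.51, -0.89 and -0.87 on control replicates 1, 5 and 6, the arrays high in airway transcripts, against -0.21 to 0.42 on the other controls and -0.45 to 0.24 on the exposed arrays. Its markers include sarcomere members such as Tnni3, Myh6, Myl3 and Actc1 and the calcium handling members Pln and Ryr2. The score therefore partly restates these lists and is no separate measure of make-up. Without these 3 arrays the medians were -0.06 for the sarcomere list, -0.07 for calcium handling and -0.01 for the cardiomyocyte markers. Within the 3 slide pairs the sarcomere median was -0.04, the calcium handling median -0.11 and the cardiomyocyte marker median -0.02. At position 2 they were 0.47, 0.29 and 0.55. The difference per pair for Kcnd2 was 1.62, -0.29 and 0.18, the largest from the pair with control replicate 1, and 1.61 at position 2. The part of the tissue mixture in these values was not tested.

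Energy genes had list medians between -0.06 and 0.19. Respiratory chain genes had 18 of 37 members above 0 and a median of 0.00. Cox6a2, the heart and muscle form of a cytochrome oxidase subunit, had 0.61 (standard error 0.22, limma adjusted p = 0.345), with controls from 4.20 to 5.98 and exposed hearts from 5.14 to 5.85. Atp5d, a subunit of ATP synthase, had -0.34. Beta-oxidation genes had 7 of 20 above 0, with Acads, the short-chain dehydrogenase, at -0.45. Targets of PPAR-alpha, the fatty acid sensor, had 18 of 23 above 0 and a median of 0.19, with Mlycd, which degrades malonyl-CoA, at 0.61. The exposed hearts spanned 2.03 to 3.05 for Mlycd and the controls 0.89 to 2.57. Its slide pairs gave 1.78, -0.14 and -0.46 and position 2 gave 0.79. Without control replicates 1, 5 and 6 Mlycd had 0.001. Glycolysis and lactate genes had 19 of 28 above 0 and a median of 0.13. Ldhb, the lactate dehydrogenase of heart, had 0.96 (standard error 0.40) and Pgam2, the muscle phosphoglycerate mutase, 0.47. For Ldhb the slide pairs gave 1.65, -0.05 and -0.54, position 2 gave 1.23, and the fit without control replicates 1, 5 and 6 gave 0.25. The housekeeping enzymes Pgk1 and Pfkp had -0.30 and -0.26. Both kept that sign in each slide pair, though with median centring they stood at 0.15 and 0.18, below the 0.29 of all genes, and a second probe of Pfkp gave 0.12.

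Vessel and matrix genes held some of the larger single differences. Ephx2, the soluble epoxide hydrolase that inactivates vasodilating epoxides of arachidonic acid, had a fold change of 1.30 (standard error 0.45, 95% interval 0.37 to 2.22, limma adjusted p = 0.345), the largest among vasoactive genes. Its control ratios were 4.27, 5.25, 6.50, 5.22, 4.84 and 4.43 and its exposed ratios 6.75, 6.86, 6.27, 5.63 and 6.39. All exposed hearts lay above 5 of 6 controls, but the slide pair with control replicate 3, the exception, had a difference of -0.23. Without control replicates 1, 5 and 6 the fold change of Ephx2 was 0.72. Nt5e, the surface enzyme that forms adenosine, had 0.76 (standard error 0.25) and was positive in the 3 pairs (1.11, 0.42 and 0.87). The vasoactive list as a whole had 12 of 23 above 0 and a median of 0.05. In the coagulation and adhesion list 8 of 19 were above 0, and Serpine2, a thrombin inhibitor, had 0.84 (standard error 0.29). Its exposed ratios were 1.27, 0.99, 2.25, 1.34 and 1.61 and its controls ran from 0.06 to 1.21, with overlap of a single exposed heart.

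Spp1, osteopontin, a matrix protein and cytokine that macrophages make in injured tissue, had a fold change of -0.98 (standard error 0.30, 95% interval -1.60 to -0.37, limma adjusted p = 0.345). Control ratios were -7.15, -7.45, -7.93, -7.13, -6.84 and -6.89, far below the reference, and exposed ratios -7.97, -8.65, -8.49, -7.76 and -8.19. Only control replicate 3 lay among the exposed hearts. The sign held in the 3 slide pairs (-0.82, -0.56 and -0.64) and at position 2 (-1.28), and the fold changes at days 1 and 28 were -0.48 and -0.53. Timp4, the heart's inhibitor of matrix metalloproteinases, had 0.86 (standard error 0.38), and Mmp14, a membrane-bound metalloproteinase, had 0.64 overall but -0.18 at position 2 and -0.01 by a second probe. Over the 28 matricellular and turnover genes 14 were above 0 and 14 below. The basement membrane list had 7 of 15 above 0, with agrin, Agrn, at -0.30 and negative in each slide pair.

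Proliferation genes had 17 of 22 members below 0 and a median of -0.16. Plk1, a kinase of mitosis, was without overlap: controls ran from -2.68 to -2.24 and exposed hearts from -2.93 to -2.70, a fold change of -0.41 (standard error 0.15, limma adjusted p = 0.348). Aurka, another mitotic kinase, had -0.35, with controls from -3.38 to -2.66. Under median centring Plk1 and Aurka stood at 0.05 and 0.10, and the list at 0.27, beside 0.29 for all genes. p53 and DNA damage response genes had 13 of 23 above 0 and a median of 0.05, with the cyclin Ccng1 at 0.47 and Ei24 at 0.39.

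Cytosolic ribosomal protein genes had 18 of 31 above 0 and a median of 0.11. Rpl28, Rps14 and Rps18 had 0.67, 0.68 and 0.67, with standard errors of 0.25 to 0.26. The lowest control was replicate 1 for Rpl28 and Rps18 and replicate 6 for Rps14. With the processed signals of the scanner software Rps14 stood at -0.01 and Rps18 at -0.0009. The list's median was 0.25 in the 3 slide pairs and -0.10 at position 2, where Rpl28, Rps14 and Rps18 had 0.42, 0.02 and 0.19. Proteasome genes had 14 of 30 above 0 and a median of -0.02, and 5 members had an unadjusted p under 0.05, all higher, where 7.00% of all genes were higher at that threshold. Psmb2, a subunit of the proteolytic core, was without overlap: control ratios were -1.24, -0.09, -0.17, -0.38, -0.08 and -0.90, and exposed ratios 0.14, 0.34, 0.09, 0.14 and 0.08. Its fold change was 0.63 (standard error 0.22, limma adjusted p = 0.345). Psmd14 and Psmd6 of the regulatory cap had 0.58 and 0.44. Heat shock chaperones had 19 of 24 above 0 and a median of 0.10. Hspb7, a small chaperone of heart muscle, had 0.40, and Hspa8, the constitutive Hsp70, had 0.39, computed without control replicate 4, whose spot was left out. Stress genes of the endoplasmic reticulum had 15 of 27 above 0, with opposite signs for the chaperone Hspa5 (0.84, standard error 0.34) and Trib3, a target of the integrated stress response (-0.48, standard error 0.19).

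Of 19 macrophage markers 12 were above 0 with a median of 0.17. Mertk, the receptor with which resident macrophages take up dying cells, had 0.60 (standard error 0.21), and C1qa, a complement subunit made by macrophages, had 0.86 (standard error 0.40). C1qa's controls ran from 1.75 to 3.70 and its exposed hearts from 3.03 to 3.90, and the list's median was -0.06 without the liver-high controls. The macrophage median was 0.23 in the 3 slide pairs and -0.10 at position 2, where Mertk had 0.05 and C1qa 0.33. Of 14 neutrophil markers 7 were measured, 2 above 0. S100a8, a granule protein of neutrophils, had 0.17 (standard error 0.18) and was well above background on 3 arrays of each group. Ltf, lactoferrin, which neutrophils and airway glands both secrete, had -1.01, held by control replicate 6 at 4.24, where the other controls were at 1.14 or below. Platelet markers had 6 of 6 members above 0 and a median of 0.40, with Treml1 at 0.64 and the chemokine Ppbp at 1.02 (standard error 0.56). The platelet median was 0.55 in the 3 slide pairs, 0.02 at position 2 and 0.14 without the liver-high controls. The blood marker Hba-a1, alpha globin, had 0.15. Of 9 thymocyte markers 4 were measured and these were below 0, with Dntt, which adds bases to antigen receptor genes, at -0.63. The thymocyte median was -0.25, and -0.02 with no filter on dim probes.

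The list of airway transcripts had the lowest median of the 48 lists, and 3 control arrays carried it. Of 12 listed airway and alveolar markers 6 were measured, 5 of them below 0, with a median of -1.61. A probe could pass the filter on dim signals through 1 group alone, and with no such filter the list's median was -0.77. Scgb1a1, the secretoglobin of club cells, had control ratios of 5.84, 0.11, 0.14, 0.28, 2.88 and 3.50 and exposed ratios of 0.42, 0.28, 0.35, 0.23 and 0.15. Control replicates 1, 5 and 6 were high, and replicates 2, 3 and 4 could not be told from the exposed hearts. The fold changes were -1.84 for Scgb1a1, -2.11 for Bpifa1, -1.51 for Scgb3a1 and -1.70 for Cyp2f2, the cytochrome P450 of club cells (limma adjusted p between 0.345 and 0.360). Without those 3 arrays they were 0.11, 0.07, 0.04 and 0.36, and the list's median was 0.09. Those arrays were singled out by these transcripts, so the drop only shows which arrays hold the difference. Fat markers varied as widely. The fold changes were 1.66 for Ucp1, 1.15 for Cidec, 0.93 for Adipoq and 0.79 for Plin1, with standard errors of 1.24 or more. They were above 0 in the 3 slide pairs for the 4 genes and between -1.63 and -0.49 at position 2. Cidec, a lipid droplet protein, ran from -0.02 on control replicate 4 to 6.56 on carbon black replicate 4, Adipoq and Plin1 were also lowest on control replicate 4, at -0.02 and 0.04, and Ucp1 of brown fat was at 0.10 and 0.06 on control replicates 3 and 4 and between 4.21 and 6.85 elsewhere. The atrial light chain Myl7 was at 1.47 on control replicate 4 and between 5.11 and 6.81 on the other 10 arrays.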

How the data were processed

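Per the file headers, the software behind the 4-array Agilent slides was Feature Extraction 10.1.1.1. The deposited scanner files give median foreground and background intensity and quality flags per spot, per the file headers, and further columns give the software's processed signal. The authors also deposited a table of log2 ratios, whose column medians lay between -0.06 and -0.03. Those log2 ratios correlated at 0.995 to 0.998 with loess-normalized ratios without background correction, which gave their scale, centring and direction.

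Median signals were corrected with normexp (offset 50) and loess-normalized within arrays. The tools were R 4.3.3 with limma 3.58.1 and python 3.11.15 with matplotlib 3.10.9. Flagged spots and controls were left out and spots of a probe averaged, giving 41174 probes. Probes were kept when the share of arrays clearly above background in the heart channel reached 0.5 in some group and at most 3 values were missing (25253 probes). The brightest probe stood for a gene, giving 19798 genes, 12347 of them with a symbol from RefSeq GRCm38.p6. lmFit and eBayes were run over 34 arrays with 6 group means (28 residual degrees of freedom), with Benjamini-Hochberg adjustment at 0.05 over all genes tested. The scripts were tested on simulated data.

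Of the genes with a symbol, those named were, in each direction, the passing genes or, as fewer than 10 passed, the 10 of smallest unadjusted p, the 5 in each direction for the difference between days, up to 6 members of smallest unadjusted p of each described list, and 12 markers of tissue composition. Some genes that this rule would name are not reported here. The comparison and the lists were chosen with earlier results of these data known. No 2 day 3 arrays held the same values (highest correlation 0.97). Alternatives changed the background correction, scaling, filter, probes, blocks and arrays used.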

Additional observations from a re-analysis of the deposited data

Results flagged for a closer look

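In the values of the 118 named genes, 236 groups of 5 or 6 arrays were checked for a highest or lowest array far from the rest (Dixon's criterion at 95%), and 14 were marked. Chance marks about 1 in 20 groups.

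Among the controls, replicate 4 was low in the atrial light chain Myl7 (1.47, next array 5.11) and replicate 5 in the ventricular light chain Myl2 (1.88, next 4.26). Replicate 6 was high in Ltf, lactoferrin (4.24, next 1.14), and in Nfkbia, the inhibitor of NF-kappa-B (-0.08, next -1.13). Replicate 1 was high in Nagpa, the lysosomal tagging enzyme (0.95, next 0.61), and low in Nfe2l2, which encodes Nrf2 (-1.10, next -0.43). Replicate 3 was low in Pgk1, phosphoglycerate kinase (-1.87, next -1.46), and in Dntt, the thymocyte marker (-1.79, next -0.71).

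Among the exposed hearts, replicate 4 was low in 2 muscle genes, Pgam2 (3.80, next 4.34) and Cox6a2 (5.14, next 5.75). Replicate 2 was low in Gstm1, the glutathione transferase (1.13, next 1.49), and high in the proteasome subunit Psmb2 (0.34, next 0.14). Replicate 3 was low in Ogfod2 (-0.54, next -0.31), and replicate 1 was high in Dntt (-0.78, next -1.37).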

How the results depend on the processing

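The count of genes past the threshold at day 3 was 0 under each alternative except 1: leaving out each day 3 array in turn gave 0 to 1 genes, the 1 being Gsr without control replicate 5 (log2 fold change 0.60, limma adjusted p = 0.0413). For the difference between days the count was 0 under each alternative that gave a value; the 11 arrays alone and the 3 slide pairs hold no other day and gave none. Genes at an unadjusted p under 0.05, 2199 at day 3, numbered 693 with the scanner software's processed signals, 1045 with array position as a block, 1068 without the liver-high controls and 1114 at position 2. They numbered 1257 in the slide pairs, 1357 with only genes well above background on all arrays, 3345 without control replicate 3 and 3579 with median centring. Leaving out the airway-high controls, chosen after seeing the data, gave 816. With slide as a block there were 2227 such genes. No paired analysis was possible by replicate number because sample numbers in the labels differ between all arrays and replicate numbers follow accession order, which pairs no animals. Pairing by slide gave the counts above for the slide pairs and the slide block.

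Over the 118 named genes and 3387 alternative values, 78 changed sign, 2 of them among the 20 genes of smallest p, and the cause was not tested. With median centring, where all genes had a median of 0.29, the fold changes were 0.069 for Nagpa, 0.012 for Amelx, 0.24 for Marchf6, 0.17 for Alb, 0.039 for Hif3a, 0.051 for Cx3cl1, 0.076 for Srxn1, 0.074 for Ahr, 0.15 for Pgk1, 0.18 for Pfkp, 0.16 for Agrn, 0.045 for Plk1, 0.099 for Aurka and 0.12 for Atp5d. With processed signals they were 0.61 for Alb, 0.18 for Apoa1, -0.008 for Tapbp, -0.010 for Ftl1, -0.026 for Hmgcs1, -0.012 for Rps14 and -0.0009 for Rps18. In the slide pairs they were 0.86 for Alb, 0.72 for Apoa1, 0.30 for Hpx, 0.48 for Itih3, -0.040 for Nqo1 and -0.12 for Des. At position 2 they were -0.72 for Myl7, -0.22 for Nppa, -1.06 for Adipoq, -1.04 for Cidec, -1.63 for Plin1, -0.49 for Ucp1, -0.081 for S100a8, -0.26 for Hba-a1, -0.064 for Chuk, -0.012 for Ftl1, 0.28 for Acads, -0.55 for Hmgcs1 and -0.18 for Mmp14. With blocks they were 0.30 for Alb (slide), -0.15 for Map3k6 (scan day), -0.31 for Myl7 and -0.075 for Nppa (both position), and with the strict background filter 0.11 for Marchf6, through another choice of probes.

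Without the arrays low in atrial transcripts they were -0.10 for Map3k6, 0.086 for Alb and -0.0005 for Hba-a1. Without the liver-high controls they were -0.041 for Hsph1, -0.41 for Myl7, -0.017 for Nppa, 1.83 for Alb, 0.88 for Apoa1, -0.032 for Hba-a1, -0.23 for Myl2, 0.55 for Hpx, 0.46 for Itih3 and -0.030 for Pgam2. Without the airway-high controls they were 0.069 for Bpifa1, 0.044 for Scgb3a1, 1.03 for Alb, 0.32 for Apoa1, 0.11 for Scgb1a1, 0.15 for Itih3, -0.12 for Des and 0.36 for Cyp2f2. Leaving out single arrays turned Map3k6 (range -0.12 to 0.26), Alb (-0.87 to 0.37), Myl7 (-0.079 to 0.99) and Plin1 (-0.0076 to 1.51). Signal over background limits the dim genes, such as Fam107a, Olfr1359 and S100a8, and the 6 and 5 arrays leave a median 95% half-width of 0.32 on the log2 scale.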
